A study of Mus musculus with 12 samples.

Results

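The 9 genes described here encode enzymes of the tricarboxylic acid (TCA) cycle: Cs, Idh3a, Idh3b, Idh3g, Ogdh, Suclg1, Sdha, Fh1 and Mdh2. They were chosen by name, as rows of a ribosome profiling score table from mouse liver carrying one of these gene names, and their transcripts were averaged per gene, which gave 9 of the 11587 genes in the table. The table compares 3 Maf1 KO mice (KO1, KO2 and KO4) with 3 wild-type (WT) mice (WT1, WT2 and WT3), all of strain C57BL/6 and killed at 9 PM, with Drosophila S2 cell material added to every extract. MAF1 is a repressor of RNA polymerase III, the enzyme that transcribes tRNA genes. Each liver gave a ribosome footprint library, made from mRNA fragments that ribosomes protect from nuclease, and a total RNA library, so that there were 12 libraries in 4 groups of 3. The age is 12 to 14 weeks in the sample characteristics and 12 weeks in the protocol. The labels describe the mice as refed and the study's methods as fed ad libitum, and neither the allele nor a feeding difference between the genotypes is given in the labels. The transcript of the deleted gene is not analysed here and gave no check of the labels.

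The TCA cycle runs in the mitochondrial matrix. It oxidizes the acetyl group of acetyl-CoA, which in liver comes largely from fatty acids and pyruvate, to carbon dioxide and passes the electrons to the respiratory chain. Its intermediates also leave the cycle for glucose, amino acid and lipid synthesis, which makes it a branch point of liver metabolism. All the enzymes are encoded in the nucleus, translated in the cytosol and imported into mitochondria.

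Entry into the cycle is catalysed by citrate synthase, the product of Cs (chr10:127774888-127799535, plus strand, assembly NCBIM37, which is the same as mm9 and is used for all gene positions here). The oxidation of isocitrate depends on the NAD-dependent isocitrate dehydrogenase, with a catalytic alpha subunit from Idh3a (chr9:54434288-54452468, plus strand), a beta subunit from Idh3b (chr2:130105045-130110283, minus strand) and a gamma subunit from Idh3g (chrX:71024302-71032236, minus strand). Ogdh (chr11:6191636-6256645, plus strand) encodes the first component of the oxoglutarate dehydrogenase complex. Suclg1 (chr6:73198376-73226905, plus strand) encodes the alpha subunit of succinyl-CoA ligase, which makes succinate. Sdha (chr13:74459702-74487728, minus strand) encodes the flavoprotein of succinate dehydrogenase, the enzyme that is also complex II of the respiratory chain. Fumarase is the product of Fh1 (chr1:177530505-177555766, minus strand), and mitochondrial malate dehydrogenase, which regenerates oxaloacetate, is the product of Mdh2 (chr5:136254350-136266268, plus strand). The coding sequences ran from 1014 bases in Mdh2 to 3114 bases in Ogdh.

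By the score as deposited, the 9 enzymes were among the more abundant mRNAs of the liver. Percentiles per coding length were not computed. The scores are the authors' log2 of normalized tag counts. In total RNA, averaged over the 6 mice, they ranged from 10.65 ± 0.29 (SD, n = 6) for Idh3a to 13.75 ± 0.26 for Sdha, which placed them at the 79.0 to 97.4 percentiles of all genes. In footprints they ranged from 9.91 ± 0.40 for Idh3a to 13.08 ± 0.30 for Sdha, at the 81.9 to 97.2 percentiles. Sdha was the highest of the 9 in all 6 mice and in both kinds of library. Scores of different genes can be set side by side only per length, and the files do not say whether the scores are already divided by it. They fell with each doubling of coding length over 10855 genes, with slopes of -0.97 to -0.83 in footprint libraries and -0.50 to -0.45 in total RNA libraries (log2), and the order is therefore given on both scales.

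On the score as deposited, the order in total RNA was Sdha, Fh1, Idh3b, Mdh2, Suclg1, Cs, Ogdh, Idh3g and Idh3a. Sdha stood 1.06 ± 0.17 (SD over 6 mice) above Fh1 and Ogdh 0.84 ± 0.16 above Idh3g, in 6 of 6 mice each. The neighbours Fh1 and Idh3b (0.12 ± 0.13), Suclg1 and Cs (0.13 ± 0.28), and Idh3g and Idh3a (0.07 ± 0.15) differed by no more than their spread. In footprints Mdh2 moved from the fourth to the second place, 0.81 ± 0.28 below Sdha. After subtraction of log2 of the coding length in kilobases, Ogdh became the lowest in both kinds of library, at 9.92 ± 0.26 in total RNA and 9.26 ± 0.42 in footprints, and Mdh2 became the highest in footprints, at 12.25 ± 0.38 against 12.09 ± 0.30 for Sdha. The place of Ogdh therefore depends on what the scores are divided by, whereas Idh3a and Idh3g stayed among the 3 lowest on either scale.

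The 3 isocitrate dehydrogenase subunits have coding sequences of similar length (1098, 1152 and 1179 bases for Idh3a, Idh3b and Idh3g) and can be compared on either scale. The mRNA of the beta subunit was the most abundant of the 3 in all 6 mice. In total RNA Idh3b exceeded Idh3a by 1.92 ± 0.16 (SD, n = 6 mice), a 3.80-fold higher level, and Idh3g by 1.85 ± 0.10, or 3.61-fold. In footprints the differences were 2.10 ± 0.26 and 2.003 ± 0.24. Idh3a and Idh3g differed by less than the spread between mice in total RNA (0.07 ± 0.15) and in footprints (0.10 ± 0.22). The excess of Idh3b over Idh3g in total RNA was 1.78 ± 0.05 in the KO mice and 1.93 ± 0.06 in the WT mice, and no test of this difference was made.

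**Figure D1:**
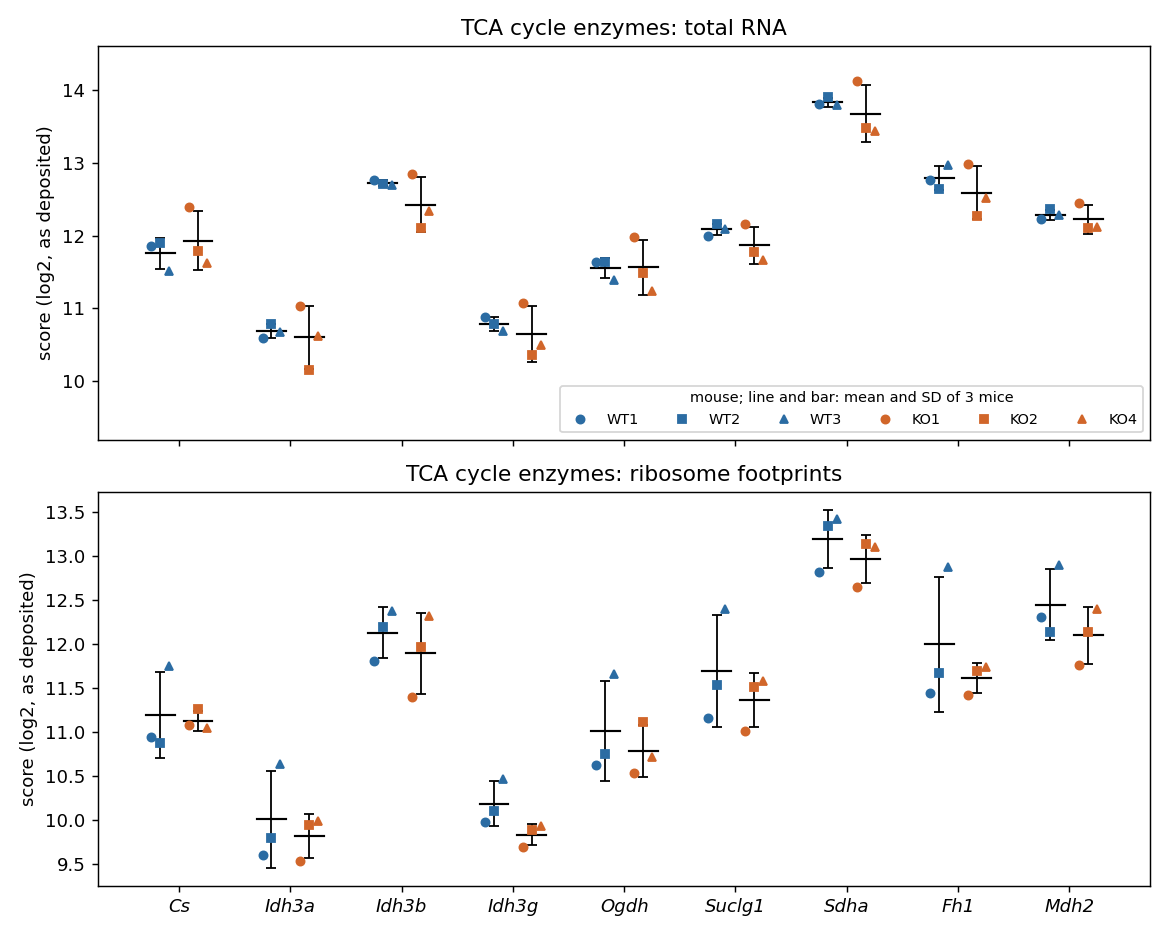
Scores (log2, as deposited) of the 9 enzymes in total RNA (upper panel) and ribosome footprint libraries (lower panel), with 1 point per mouse, WT in blue and Maf1 KO in orange, and the mean and SD of 3 mice. Sdha is the highest and Idh3a and Idh3g are the lowest, KO1 is the highest of the KO mice in every total RNA group, and WT3 is the highest WT mouse in every footprint group.

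2 mice set much of the spread in these scores. The median gene score was 9.34 in the total RNA library of KO1 and between 8.75 and 9.04 in the other total RNA libraries. It was 8.02 in the footprint library of WT3, 7.17 in that of KO1 and between 7.37 and 7.57 in the other footprint libraries. The enzymes moved with their libraries, so that each comparison is given on the deposited scale and again after each library was centred on its own median, which removes any shift shared by all genes, a real global change included. Hepatocyte markers were high in all libraries, with a lowest single score of 14.77 in total RNA. Of 12 Kupffer cell and macrophage markers, 11 were measured, and in centred total RNA their summed level (log2) ran from 5.65 to 6.12 in KO mice and from 5.16 to 5.42 in WT mice. None of the 11 was near the bottom of the scale, the lowest single total RNA score being 6.90. All 11 had a centred total RNA difference above 0. Marco, a scavenger receptor of macrophages, passed the test on the deposited scale, at 2.21 ± 0.28 (SE; limma, adjusted p = 4.001e-11). After centring it did not, at 2.19 ± 0.42 (adjusted p = 0.195). The SE on the deposited scale rests largely on the spread of all genes. The SD of Marco itself was 0.90 in KO mice and 0.41 in WT mice on that scale. Its centred total RNA scores were -2.10, -1.36 and -1.73 in WT mice and -0.06, 1.65 and -0.22 in KO mice, with no overlap. The summed level of 7 endothelial markers ran from 4.04 to 4.35 in KO mice and from 3.97 to 4.02 in WT mice, and that of 6 stellate cell markers from 3.77 to 4.16 and from 3.65 to 3.86. In centred footprints the groups overlapped in each of these lists. The Kupffer cell and macrophage sum there was 6.42 to 6.90 in KO mice and 5.84 to 6.48 in WT mice. The total RNA sum of 2 erythroid markers ran from 4.35 to 4.66 in KO mice and from 4.56 to 5.51 in WT mice. The part of these differences in the results for the enzymes and the other lists was not tested. In a whole liver extract, fewer cells of a type and less RNA per cell cannot be told apart.

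The first comparison asked whether loss of Maf1 changed the mRNA level of the enzymes. On the deposited scale none of the 9 passed the test (limma, adjusted p = 0.9995 for each, adjusted over all genes), none had an unadjusted p under 0.05, and 32 of 11587 genes passed (0.276%). The differences ran from -0.29 for Idh3b to 0.18 for Cs, with a median of -0.14 against 0.00 over all genes, and 7 of the 9 were below 0, as were 49.6% of all genes. The groups overlapped in all 9, while 1.42% of all genes had every KO mouse below and 4.07% every KO mouse above every WT mouse.

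After centring, 8 of the 9 enzymes were lower in KO mice, with a median difference of -0.16 against -0.02 over all genes, of which 53.4% were lower. Again none passed the test, which 2 of 11587 genes did (0.0173%), and 1 of the 9, Idh3b, had an unadjusted p under 0.05 with a lower KO mean, beside 3.78% of all genes. The mRNA of Idh3b showed the widest gap. Its centred total RNA score was 3.76, 3.66 and 3.87 in WT1, WT2 and WT3 and 3.50, 3.35 and 3.50 in KO1, KO2 and KO4. Every KO mouse was below every WT mouse, with a difference of -0.31 ± 0.11 (SE; 95% interval -0.57 to -0.06; limma, unadjusted p = 0.0209, adjusted p = 0.516). Without WT3 the difference was -0.26. The median over the 9 enzymes depended on the fit. It was -0.066 after quantile normalization. In centred fits it was -0.195 without KO1, -0.064 without WT3 and -0.076 without both.

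The gamma subunit gene Idh3g had centred total RNA scores of 1.88, 1.75 and 1.87 in the WT mice and 1.74, 1.61 and 1.67 in the KO mice. Those of Sdha were 4.80, 4.85 and 4.96 in the WT mice and 4.78, 4.72 and 4.598 in the KO mice. In both genes the groups lay apart by a narrow margin, with KO1 the KO mouse nearest to the WT range. The differences were -0.16 (95% interval -0.41 to 0.08) for Idh3g and -0.17 (-0.44 to 0.09) for Sdha. Idh3b, Idh3g and Sdha were thus the 3 of 9 enzymes whose groups did not overlap, all lower in KO, beside 814 of 11587 genes (7.03%) with every KO mouse below every WT mouse.

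In the other enzymes the groups overlapped. Suclg1 had a difference of -0.24 (95% interval -0.51 to 0.03), Fh1 -0.22 (-0.55 to 0.11), Idh3a -0.10 (-0.41 to 0.20), Mdh2 -0.08 (-0.35 to 0.18) and Ogdh -0.01 (-0.27 to 0.26). The overlap in Fh1 came from WT2, which at 3.60 was below KO1 and KO4 (3.64 and 3.69), while WT3 was at 4.14. Cs, at the entry of the cycle, was the exception in direction. Its centred scores were 2.85, 2.86 and 2.68 in the WT mice and 3.04, 3.03 and 2.79 in the KO mice, a difference of 0.16 (-0.11 to 0.42). KO1 and KO2 were above all WT mice and KO4 was within their range.

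**Figure D2:**
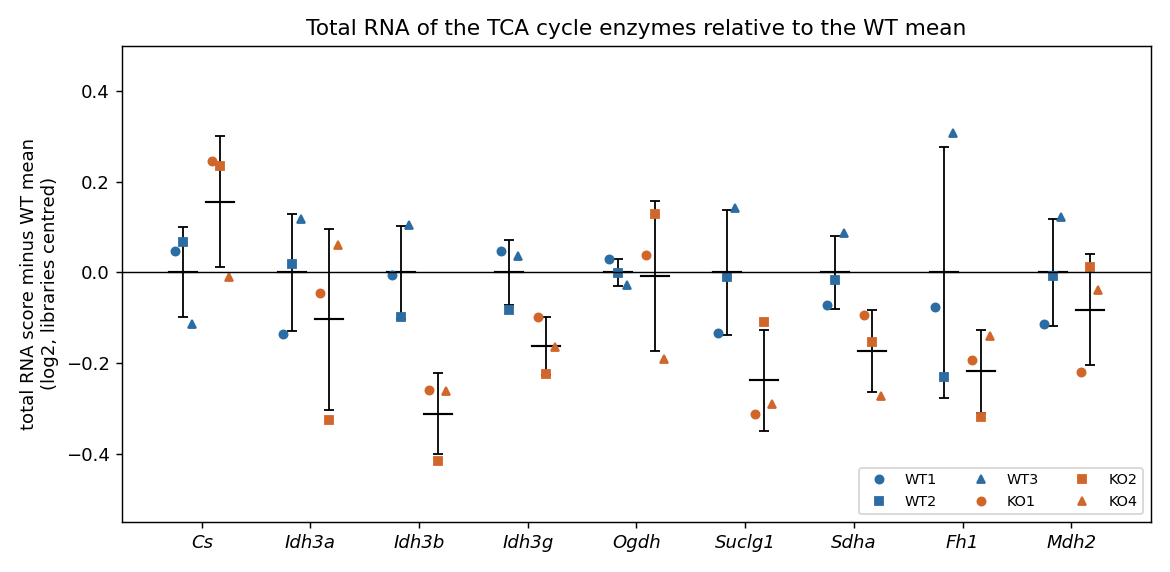
Centred total RNA score of each enzyme minus its WT mean (log2), with 1 point per mouse and the mean and SD of 3 mice. The 3 KO mice lie below all 3 WT mice in Idh3b, Idh3g and Sdha, the groups overlap in the other 6 enzymes, and the KO mean of Cs lies above 0.

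The promoters of Idh3b and Idh3g are printed because both genes encode subunits of one enzyme and both had groups that did not overlap. Sdha, whose groups also did not overlap, had none of the motifs searched in its window, which is not printed. RefSeq promoters (assembly GRCm38.p6, 250 bases before to 50 after the annotated start) were matched for 8 of the 9 enzymes, as 13 windows, 6 of them of Ogdh. Idh3a, which encodes the alpha subunit of the same enzyme, had no window and was not searched. 3 motifs were searched on both strands: TCAAGGTCA, an element of the oestrogen-related receptors, GCGCATGC, the core of the NRF1 element, and CCGGAAG, a core of ETS factors such as GABP, all of which are known to act on genes of mitochondrial enzymes. The motifs do not overlap each other in the windows printed. The ETS core was in 2 of the 13 windows, those of Idh3b and Idh3g, and in 2910 of all 32851 promoters (8.86%). The NRF1 core was in 2 of the 13, both overlapping windows of Ogdh, and in 2.71% of all promoters, and its longer form with GC added, which was searched first, was in none of the 13 and in 0.971% of all. The receptor element was in none of the 13 and in 0.423% of all. The windows are chr2:130284402-130284701 and chrX:73786848-73787147, both read on the minus strand, with the ETS core or its reverse complement in capitals.
Idh3b: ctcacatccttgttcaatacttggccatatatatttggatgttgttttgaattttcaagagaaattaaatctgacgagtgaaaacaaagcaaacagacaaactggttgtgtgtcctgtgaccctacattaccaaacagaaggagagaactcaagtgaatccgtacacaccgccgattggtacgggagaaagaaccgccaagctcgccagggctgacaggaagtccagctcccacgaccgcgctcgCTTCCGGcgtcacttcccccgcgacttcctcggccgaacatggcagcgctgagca
Idh3g: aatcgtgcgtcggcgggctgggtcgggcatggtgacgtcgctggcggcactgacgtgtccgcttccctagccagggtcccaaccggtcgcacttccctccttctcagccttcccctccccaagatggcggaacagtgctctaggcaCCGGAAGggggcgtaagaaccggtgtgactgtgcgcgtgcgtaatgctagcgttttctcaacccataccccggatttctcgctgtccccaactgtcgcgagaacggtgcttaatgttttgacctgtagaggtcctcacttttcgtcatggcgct
In Idh3b the reverse complement of the core begins at position -5 from the annotated start, and in Idh3g the core begins at -104. A match of letters is a description of the sequence and was not tied to binding of any factor.

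The second comparison concerned footprints, the measure of how many ribosomes sit on the mRNA of each enzyme. On the deposited scale all 9 enzymes had lower means in KO mice, from -0.06 for Cs to -0.38 for Fh1. So had 78.3% of all genes, and the median of the 9 was -0.23 against -0.18 over all genes. None of the 9 passed the test (limma, adjusted p = 0.9995 for each; none with an unadjusted p under 0.05), and 10 of 11587 genes did (0.0863%). Idh3g was the 1 enzyme whose groups did not overlap, with scores of 9.97, 10.10 and 10.47 in WT mice and 9.69, 9.88 and 9.92 in KO mice. Its difference was -0.35 ± 0.36 (SE), and 5.27% of all genes had every KO mouse below every WT mouse.

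After centring, the footprint differences of all 9 enzymes shifted upwards. The median over the 9 enzymes was -0.04 against 0.01 over all genes, and 7 of 9 were below 0, beside 48.8% of all genes. The groups of all 9 overlapped, while 4.26% of all genes had every KO mouse lower. No gene passed the test (0% of 11587, with 464 at an unadjusted p under 0.05), and none of the 9 had an unadjusted p under 0.05. For Idh3b, whose centred total RNA scores separated the groups, the centred footprint scores were 4.44, 4.71 and 4.35 in WT mice and 4.23, 4.39 and 4.75 in KO mice. KO4 was thus the highest of the 6 mice and KO1 the lowest, with a difference of -0.04 (95% interval -0.47 to 0.38). For Idh3g the centred footprint difference was -0.16 (-0.50 to 0.17), close to its total RNA difference of -0.16, but WT3 at 2.44 lay below KO1 at 2.52.

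Translation efficiency was the difference, within each mouse, between its footprint and total RNA scores. None of the 9 enzymes differed between genotypes by the test (limma, adjusted p = 1 for each on the deposited scale; none with an unadjusted p under 0.05), and 2 of 11587 genes did (0.0173%). On the deposited scale 8 of the 9 had lower means in KO mice, with a median of -0.18 against -0.19 over all genes, of which 80.2% were below 0. KO1 was the lowest mouse in all 9 enzymes, at -0.70 in Mdh2 and between -1.15 and -1.56 in the others. WT3 was the highest in 7 of them. With KO1 and WT3 both left out, the median over the 9 was 0.46, against 0.40 over all genes. The direction on this scale thus rests on these mice, for all genes as for the 9. After centring, the median was 0.02, as it was over all genes, and 3 of the 9 (Cs, Ogdh and Mdh2) were below 0, beside 46.9% of all genes. The groups of all 9 overlapped, while 3.5% of all genes had every KO mouse lower, and no gene passed the test (0%, with 351 at an unadjusted p under 0.05). The widest centred difference was that of Idh3b, 0.27 (95% interval -0.25 to 0.78). The intervals of the 9 enzymes reached from -0.57 to 0.78, and differences of that size in either direction could not be resolved with 3 mice a group.

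**Figure D3:**
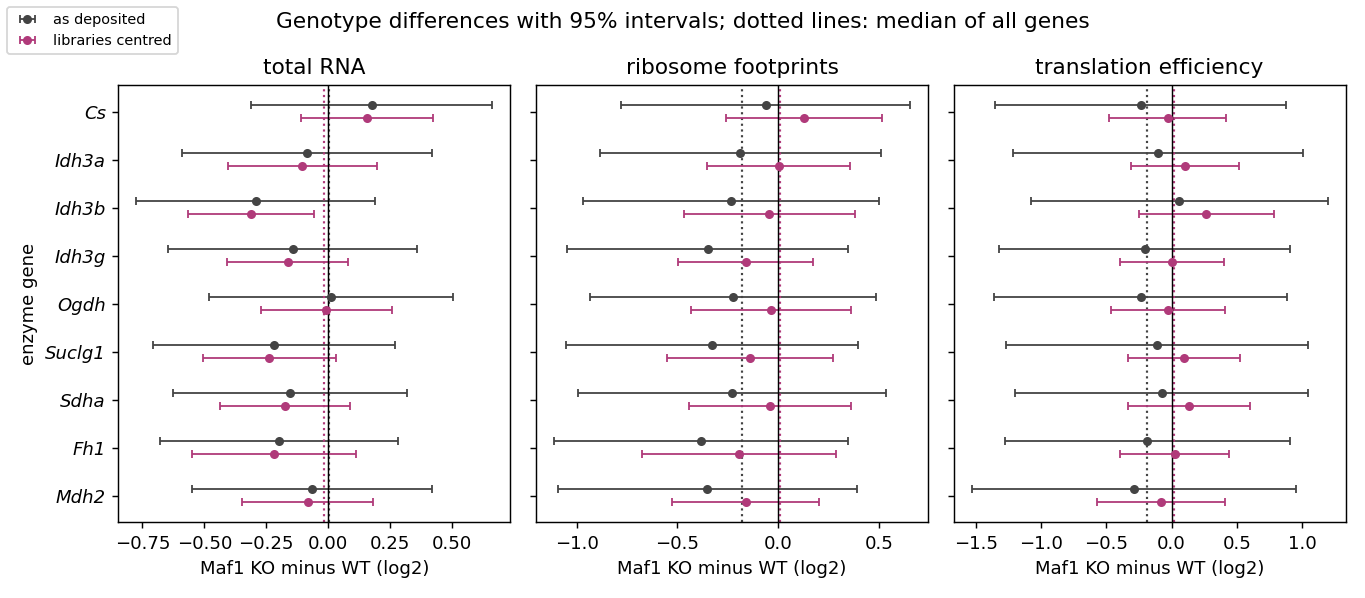
Maf1 KO minus WT differences (log2) of the 9 enzymes in total RNA, footprints and translation efficiency, as deposited (grey) and with libraries centred (magenta), with 95% intervals from limma and dotted lines at the median of all genes. On the deposited scale all intervals include 0, centring narrows them and shifts the footprint and translation efficiency values upwards, and the centred total RNA interval of Idh3b lies below 0.

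The level of translation efficiency, as opposed to its difference between genotypes, was above the library medians in all 9 enzymes, at the 67.9 to 95.04 percentiles of all genes. After centring, 0 marks a gene whose footprints stand to the footprint median as its total RNA stands to the total RNA median, and the median of all genes was 0.16. All 9 enzymes were above 0 in all 6 mice, from 0.56 for Fh1 to 1.45 for Mdh2, with a median of 0.77. All 9 passed the test against 0 (limma, adjusted p between 1.482e-05 and 0.0004993). Of all genes, 5058 of 11587 passed in this direction (43.7%), and 39.2% were above 0 in all 6 mice. With the least abundant genes left out, 53.5% of the remaining 8003 genes passed in this direction. All 9 enzymes kept the call under every alternative tried, with adjusted p from 5.41e-07 to 0.0234. Values of footprints per total RNA also fell with coding length across genes, since the 2 kinds of library had different slopes, so the level carries that dependence. In an alternative chosen after seeing the data, the footprint scores were multiplied by coding length before centring. All 9 again passed above 0, beside 40.2% of 10855 genes, with a median of 0.60, but the order changed. Ogdh, the longest, became the highest at 1.85 ± 0.09 (SE), followed by Sdha at 1.197 ± 0.097 and Mdh2 at 0.91 ± 0.09, and Idh3a became the lowest at 0.27 ± 0.09. The order that follows therefore holds for the score as deposited alone.

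Mdh2, which encodes the enzyme of the last step, had the highest translation efficiency of the 9 on the score as deposited. Its centred values were 1.71, 1.34 and 1.42 in WT1, WT2 and WT3 and 1.47, 1.22 and 1.54 in KO1, KO2 and KO4. Its lowest mouse, at 1.22, lay above every value of the other enzymes except the 1.25 of Idh3b in KO4. The mean of Mdh2 was 1.45 ± 0.11 (SE; 95% interval 1.21 to 1.70), 2.74-fold above the reference and at the 95.04 percentile of all genes, and it exceeded Suclg1 by 0.46 ± 0.23 (SD) within mice, in 6 of 6 mice.

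Suclg1 followed at 0.99 ± 0.09 (SE), with values of 0.79 to 1.10 in WT mice and 0.92 to 1.17 in KO mice, at the 84.9 percentile. Idh3b was at 0.87 ± 0.11 and was the most variable of the 9 between mice, from 0.49 in WT3 to 1.25 in KO4. Ogdh (0.77), Sdha (0.77), Cs (0.75), Idh3g (0.72) and Idh3a (0.70) were close to each other, and the differences between neighbours in this order were smaller than their spread within mice. Fh1 was the lowest at 0.56 ± 0.09, at the 67.9 percentile, with values from 0.32 in WT1 to 0.72 in WT3. It was 0.14 ± 0.16 (SD) below Idh3a within mice, also within the spread. Below Mdh2, neighbours in this order therefore differed by less than their spread within mice, and no test between them was made.

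**Figure D4:**
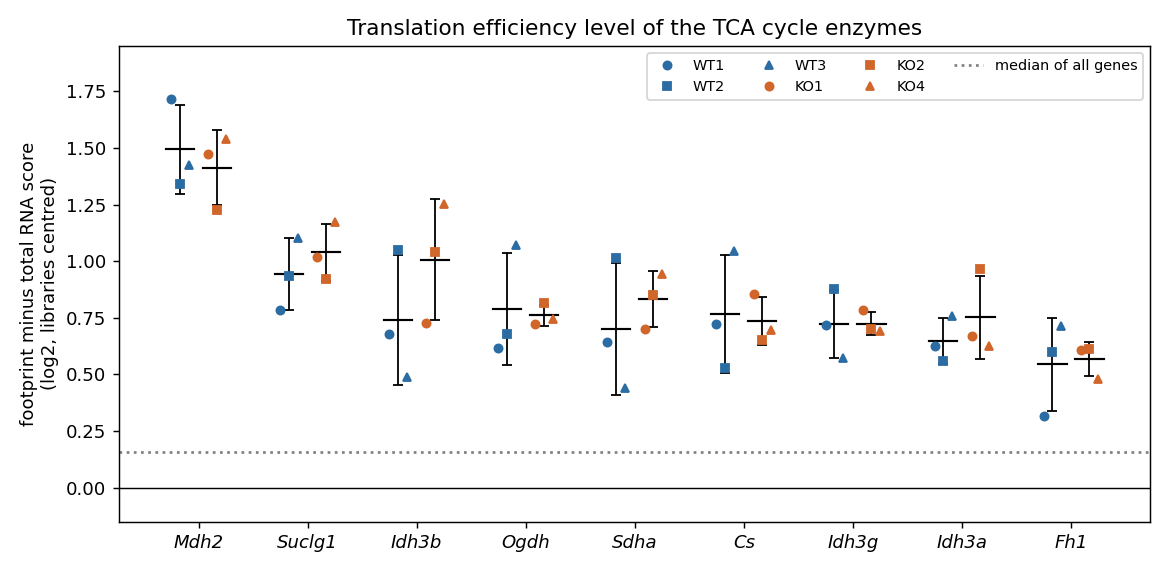
Centred translation efficiency (footprint score less total RNA score within a mouse, log2) of the 9 enzymes in order of their mean, with 1 point per mouse, WT in blue and Maf1 KO in orange, and the mean and SD of 3 mice. All points lie above both 0 and the median of all genes (dotted line at 0.16), Mdh2 is the highest on this scale, and the genotypes overlap in each enzyme.

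The sequence around the start codon, where the ribosome begins, is shown for the 9 enzymes in the order of their translation efficiency on the deposited score, to set it beside these levels. Strong start sites in mammals have a purine at the position 3 bases before the AUG and a G just after it. The sequences are the 10 bases before the start codon to 6 bases from its first base (GENCODE, NCBIM37). Transcripts with fewer than 10 bases before the start codon were left out, and the longest coding sequence among the rest was used. It is therefore not always the longest of the gene. The base at -3, the ATG and the base after it are in capitals.
Mdh2: cgccctaGccATGCtg
Suclg1: tcattggGggATGAcc
Idh3b: tcggccgAacATGGca
Ogdh: tcaggacAaaATGTtt
Sdha: gaaggcaGacATGGcc
Cs: ttcgcccGccATGGct
Idh3g: acttttcGtcATGGcg
Idh3a: aggaaagTggATGAtc
Fh1: cagcagcAccATGTac
A purine at -3 was present in 8 of the 9 starts shown, beside 86.1% of 10640 genes of the table with such a sequence. A G followed the ATG in 4 of the 9, beside 53% of those genes. The start without a purine at -3 is the one shown for Idh3a. Annotated coding sequences of Idh3a ran from 864 to 1098 bases, and whether the longest begins at this start was not checked. The start shown may lie inside the longer sequence, so the counts hold for the starts as shown. Mdh2 has a C and Suclg1 an A after the ATG, whereas Idh3b, Sdha, Cs and Idh3g have both favoured bases.

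4 enzymes had several transcript rows in the table, and their average enters all values above. The rows agreed closely in Idh3g, Ogdh and Idh3a, whose rows differed by at most 0.19 in mean total RNA score. Of the 5 rows of Ogdh, 4 were distinct. The 2 rows of Suclg1 differed by 1.41 in total RNA (11.27 and 12.68) and by 0.80 in footprints (11.13 and 11.92). The row with the lower total RNA thus had the higher translation efficiency, -0.14 against -0.76 on the deposited scale, and with the most abundant row alone the centred level of Suclg1 was 0.69 and not 0.99. Its second place in the order of translation efficiency rests on the averaging. The difference between genotypes hardly depended on the row, at -0.21 and -0.23 in total RNA.

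The other subunits and enzymes of the cycle on the list also had lower means in KO total RNA. Of 9 such genes, all 9 had a centred total RNA difference below 0, with a median of -0.26 against -0.02 over all genes, of which 53.4% were below 0. In 4 of them the groups lay apart and lower in KO, as in 7.03% of all genes. None passed the test. Suclg2, which encodes the GTP-specific beta subunit that pairs with the product of Suclg1, had a centred total RNA difference of -0.27 ± 0.11 (SE; limma, adjusted p = 0.563). Of all 18 cycle genes measured, these 9 included, 17 were below 0 after centring, Cs being the exception. On the deposited scale 16 of the 18 were below 0, and no groups were apart.

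In footprints this did not extend to the other cycle genes as a group. Of those 9, 5 were below 0 after centring, with a median of -0.03. In centred translation efficiency all 9 were above 0, with a median of 0.24 against 0.02 over all genes, and in 3 the groups lay apart and higher in KO, as in 3.94% of all genes. None passed the test. Sdhd, which encodes a membrane anchor of succinate dehydrogenase, had a centred footprint difference of 0.29 (95% interval -0.08 to 0.65) and a centred translation efficiency difference of 0.55 (0.06 to 1.04; limma, adjusted p = 0.9996). Sdha, the catalytic subunit of the same enzyme, had -0.04 and 0.13. The translation efficiency level of the other cycle genes had a median of 0.77, as in the 9 enzymes, and 8 of 9 passed above 0, beside 43.7% of all genes, with Sdhc and Sdhd the highest at 1.62 and 1.55.

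Among genes that feed the cycle or draw from it, Me1 was the only one of the metabolic lists to pass the test. Me1 encodes the cytosolic malic enzyme, which turns malate into pyruvate and yields NADPH. Its centred total RNA scores were 2.92, 3.11 and 2.90 in WT mice and 4.01, 4.01 and 4.09 in KO mice, and every KO mouse was above every WT mouse. On the deposited scale the difference was 1.08 ± 0.25 (SE; limma, adjusted p = 0.00683), and after centring 1.06 ± 0.11 (adjusted p = 0.0157). The call did not hold throughout. Its adjusted p on the deposited scale was 0.0448 without KO2 and between 0.056 and 0.27 with any other single mouse left out, and it was 0.147 without KO1 and WT3. In the centred fit it was 0.0965 without KO1, 0.118 without WT3 and 0.273 without both. Footprints of Me1 differed by 1.11 ± 0.19 after centring (adjusted p = 0.513), again with no overlap. Of 19 anaplerosis and exchange genes measured, 11 were below 0 in centred total RNA, with a median of -0.10, among them Slc25a13, a mitochondrial aspartate-glutamate carrier (-0.34 ± 0.11, adjusted p = 0.463). Pdk4, the kinase that inactivates pyruvate dehydrogenase, had a centred total RNA difference of 0.83 ± 0.37 (adjusted p = 0.587) with overlapping groups, and the 9 genes of the pyruvate dehydrogenase list had a median of -0.11.

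2 further mitochondrial lists were set beside the cycle. Of 36 complex I subunit genes, 34 were below 0 in centred total RNA with a median of -0.15, and 9 had groups apart and lower in KO, beside 53.4% and 7.03% of all genes. Ndufb3 (-0.37 ± 0.12) and Ndufs1 (-0.36 ± 0.13) had the smallest p. Of 23 fatty acid oxidation genes measured, 22 were below 0, with a median of -0.28, and 10 had groups apart and lower, beside the same shares of all genes. Acat1, the mitochondrial acetoacetyl-CoA thiolase, differed by -0.55 ± 0.12 (adjusted p = 0.267), and Decr1, a reductase needed for the oxidation of unsaturated fatty acids, by -0.53 ± 0.12 (adjusted p = 0.275). None of these genes passed the test. The 12 regulators of mitochondrial genes had a median of 0.00, with 6 below 0, and Esrra, which encodes the oestrogen-related receptor alpha, had -0.20 ± 0.13. In translation efficiency level the regulators had a median of -0.09, against 0.93 for complex I and 0.86 for fatty acid oxidation.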

How the data were processed

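Livers were lysed in polysome buffer, spun, and mixed with fly cell extract at 1 part to 15. Tags were aligned by the authors against mm9 and dm6, those shared by the assemblies were dropped, and the others were assigned to coding sequences, scaled to the aligned total and by TMM (edgeR) and adjusted by the fly material. The deposited values are log2 normalized counts per transcript. Whether they hold the fly adjustment is not stated. For the aligner, nothing was given in the sources used here. Whole tags were not recovered in most libraries, so depth is unknown. In the footprint libraries WT1, KO2 and KO4, fitted steps gave from 801 tags (Idh3a, KO2) to 14119 (Sdha, WT1) per enzyme. These estimates rest on division by coding length.

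Scores of the 26260 transcript rows were averaged per gene. KO and WT were compared with limma 3.58.1 in R 4.3.3 (trended empirical Bayes, two-sided, Benjamini-Hochberg adjustment over 11587 genes, threshold 0.05), with 3 mice a group as replicates, on the deposited scale. No low-value filter or pseudocount was applied. The script was tested on simulated data. The members and lists were chosen with earlier results of these data known. All 9 enzymes are named. From the other lists, genes past the threshold and the 2 with the smallest p per measure could be named, and those printed are a selection of these. A result that this rule would name is not reported here.

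The design took the scores as not divided by length. After the data were seen, low values times coding length were checked for whole steps (within 0.1 of a whole number). The share was 54.5 to 72.5% in the footprint libraries WT1, KO2 and KO4, 36 to 42.5% in the other footprint libraries and 32.1 to 38.6% in total RNA, against 28.6 to 40.4% with no length. Several scalings were tried and the step size was fitted, so all shares are raised. Division by length is therefore likely for the footprint libraries WT1, KO2 and KO4, and this check left the others unsettled. The slopes on coding length did not set these libraries apart. They were -0.924, -0.833 and -0.966 in WT1, KO2 and KO4, and -0.904, -0.911 and -0.865 in WT2, WT3 and KO1.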

Additional observations from a re-analysis of the deposited data

How the results depend on the processing

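The translation efficiency level of all 9 enzymes kept its direction and its call under every alternative tried (144 of 144 values). Its median was 0.57 when libraries were centred on genes above the low quantile, 0.598 when footprints were multiplied by coding length, an alternative chosen after seeing the data, and 0.76 to 0.80 with 1 mouse left out, with 8298 to 8584 genes past the threshold then against 8788.

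No enzyme passed the threshold between genotypes in any alternative, whatever the measure. The median over the enzymes ran from -0.36 to -0.0019 for total RNA, from -0.42 to 0.021 for footprints and from -0.37 to 0.17 for translation efficiency with 1 mouse left out. With KO1 and WT3 both left out, it was 0.46 in translation efficiency, against 0.40 over all genes. With 1 mouse left out, 4 of 54 values turned sign for total RNA, 6 of 54 for footprints and 16 of 54 for translation efficiency. Differences that turned sign with 1 mouse left out ran, for total RNA of Cs from -0.053 to 0.33, Idh3a from -0.30 to 0.14, Ogdh from -0.20 to 0.18. They ran, for footprints of Cs from -0.22 to 0.22, Idh3a from -0.39 to 0.13, Idh3b from -0.45 to 0.013, Ogdh from -0.42 to 0.10, Suclg1 from -0.60 to 0.021, Fh1 from -0.66 to 0.055. They ran, for translation efficiency of Cs from -0.47 to 0.17, Idh3a from -0.39 to 0.25, Idh3b from -0.20 to 0.52, Idh3g from -0.37 to 0.080, Ogdh from -0.47 to 0.17, Suclg1 from -0.34 to 0.23, Sdha from -0.27 to 0.30, Fh1 from -0.45 to 0.17. Genes past the threshold (32 for total RNA, 10 for footprints, 2 for translation efficiency) numbered 1 to 30, 0 to 53 and 1 to 5 with 1 mouse left out. With libraries centred or after quantile normalization they numbered 2, 0 and 0, with low genes left out 21, 4 and 0, and with KO1 and WT3 both left out 0, 0 and 0. A common prior gave 20 in footprints and 9 in translation efficiency, robust empirical Bayes 4 and 1, a threshold of 0.1 gave 6 in translation efficiency, and the interaction model with the mouse as a random block gave 0. The centred fits without KO1, WT3 or both, chosen after seeing the data, gave 0, 1 and 0 for total RNA and 0 for the other measures. The cause of these changes was not tested.

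Replicate numbers 1 and 2 are shared by the genotypes but name different mice. Deviations of same-numbered mice correlated across genes at 0.23 and 0.27 for total RNA, -0.061 and 0.097 for footprints, and -0.10 and 0.098 for translation efficiency. The replicate block gave 9, 292 and 3 genes past the threshold. In that fit WT3 and KO4 each had a block of their own and did not enter the KO difference. Its values rest on KO1, KO2, WT1 and WT2 alone, with little left to estimate the spread.

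With libraries centred, the sign turned in total RNA Ogdh -0.0076, in footprints Cs 0.13, Idh3a 0.0015 and in translation efficiency Idh3a 0.10, Idh3g 0.0016, Suclg1 0.10, Sdha 0.13, Fh1 0.024. After quantile normalization, the sign turned in total RNA Mdh2 0.018, in footprints Cs 0.17, Idh3a 0.062, Ogdh 0.037 and in translation efficiency Idh3a 0.11, Idh3g 0.015, Suclg1 0.061, Sdha 0.061. With the replicate block, the sign turned in footprints Cs 0.26, Idh3a 0.043, Ogdh 0.14 and in translation efficiency Cs 0.050, Idh3a 0.14, Idh3b -0.062, Ogdh 0.039, Suclg1 0.030, Fh1 0.072. With KO1 and WT3 both left out, the sign turned in total RNA Cs -0.18, Ogdh -0.28, in footprints Cs 0.25, Idh3a 0.27, Idh3b 0.14, Ogdh 0.23, Suclg1 0.20, Sdha 0.041, Fh1 0.15, Mdh2 0.044 and in translation efficiency Cs 0.42, Idh3a 0.57, Idh3g 0.27, Ogdh 0.50, Suclg1 0.56, Sdha 0.44, Fh1 0.46, Mdh2 0.23. With libraries centred and KO1 left out, the sign turned in total RNA Ogdh -0.031, in footprints Cs 0.021, Idh3a 0.014, Idh3b 0.070 and in translation efficiency Idh3a 0.15, Suclg1 0.11, Sdha 0.20, Fh1 0.0031. With libraries centred and WT3 left out, the sign turned in total RNA Ogdh -0.022, in footprints Cs 0.21, Idh3a 0.12, Ogdh 0.090, Suclg1 0.011, Fh1 0.045 and in translation efficiency Cs 0.11, Idh3a 0.16, Ogdh 0.11, Suclg1 0.18, Sdha 0.0022, Fh1 0.11. With libraries centred and both left out, the sign turned in total RNA Ogdh -0.045, Mdh2 0.048, in footprints Cs 0.10, Idh3a 0.13, Ogdh 0.086, Suclg1 0.058, Fh1 0.013 and in translation efficiency Cs 0.049, Idh3a 0.20, Ogdh 0.13, Suclg1 0.19, Sdha 0.068, Fh1 0.089. These are values of differences that did not pass the test.

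Depth is unknown, 3 mice a group limit what can be resolved, and no comparison by RefSeq protein length was run. With the shortest coding length in place of the longest, the highest minus lowest enzyme level moved by less than the spread between mice.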
